A study of Drosophila melanogaster with 3 samples.

Results

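The cells described are pnt-positive progenitors of the Drosophila melanogaster larval brain. A cell counted as one when its barcode held at least 1000 unique molecular identifiers (UMIs, 1 per captured transcript), at least 500 genes and at most 20% mitochondrial UMIs, and when it had at least 2 pnt UMIs and no UMI of repo or nSyb. Of 44461 called cells, 548 met this rule. They were 282 of 15194 cells in the mud library, 120 of 14415 in the nanobody library and 146 of 14852 in the control library.

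The pnt gene encodes an Ets transcription factor that acts at the end of the EGF receptor pathway. In the larval brain it is known for its role in type II neuroblasts, a small class of neural stem cells of the central brain. A type II neuroblast does not make ganglion mother cells directly but renews itself while producing intermediate neural progenitors, which mature, regain dividing ability and then produce ganglion mother cells and neurons. Type II neuroblasts carry Dpn, a bHLH repressor of neural stem cells, and lack the proneural factor Ase. The zinc finger factors Erm and Ham act in the intermediate progenitors, and the Sp-family zinc finger factors Btd and Sp1 act in type II lineages.

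Larval brains were taken 72 to 96 h after egg laying, from larvae raised at 25 °C, and their dissociated cells were sorted and sequenced with 10x Genomics GEM-X 3′ chemistry as 1 library per genotype, all labelled batch 1. The labels describe the sorted cells as type 1 neuroblast lineages, a class that differs from type II. The mud library came from larvae with the mud4 allele and Sqh::GFP on the X chromosome, and the nanobody library from larvae with Sqh::GFP and a UAS transgene on chromosome 3 that joins an Inscuteable domain, the Rock kinase domain, the GFP-binding nanobody VhhGFP4 and an HA tag (ALDInscuteable RockKinase domain-VhhGFP4-HA). The control library came from larvae with Sqh::GFP alone. All 3 genotypes, the control included, also carried worGal4 and UAS-mCherry::Jupiter on chromosome 3; worGal4 drives expression in neuroblasts, so that the reporter is not specific to either neuroblast class. The mud transcript stood at 222 counts per 1000000 UMIs (CPM) in the pnt-positive cells of the mud library, 173 in nanobody and 196 in control; it was not lower in mud and so does not check that label, and mud stands below for the library labelled mud.

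With 1 library per genotype there was no replicate, and no test between genotypes was made. Intervals given below are exact 95% binomial or Poisson intervals and cover counting error only. Animals, sorts and library preparations differ along with genotype, and their effects cannot be told apart. The pnt-positive cells were deeper than the rest. Their median UMI count was 10057 in mud, 11585 in nanobody and 15528 in control, against 6134, 6853 and 6508.5 in the other called cells of mud, nanobody and control. Called cells of different libraries shared between 59 and 78 barcodes, and 1 pnt-positive barcode of mud and 2 of nanobody recurred among the called cells of another library.

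The rule itself set pnt, repo and nSyb, so their levels are description. The pnt count per cell had a median of 7 UMIs in mud, 4 in nanobody and 7.5 in control, with maxima of 112, 131 and 94. Cells with at least 2 pnt UMIs numbered 483 in mud, 209 in nanobody and 271 in control before the other conditions. Of these, 138, 69 and 106 were left out for a repo UMI, the marker of glia, and a further 63, 20 and 19 for an nSyb UMI, the marker of mature neurons. Just outside the rule, among cells with 1 pnt UMI and no repo or nSyb, at least 2 of erm, ham, btd and Sp1 were detected in 40.0% of 160 mud cells, 25.4% of 71 nanobody cells and 34.5% of 87 control cells. Just inside it, at 2 pnt UMIs, the share was 50% of 52 mud cells, 57.1% of 28 nanobody cells and 56.7% of 30 control cells.

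**Figure D1:**
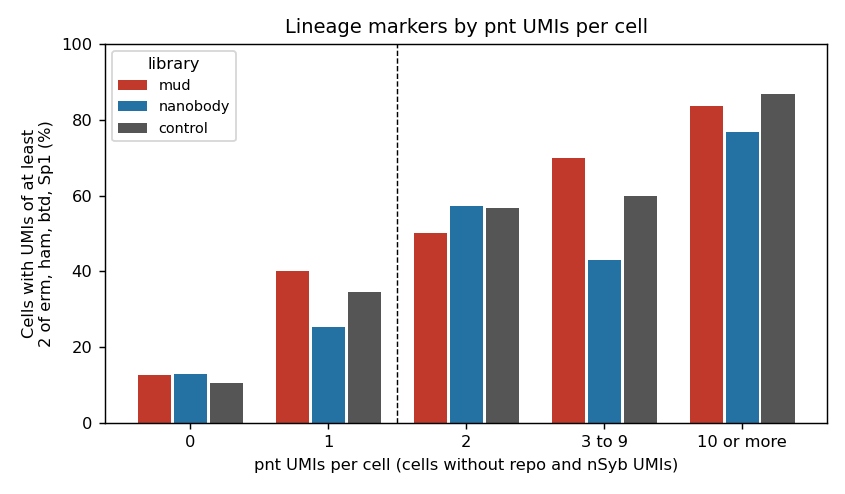
Share of cells with a UMI of at least 2 of erm, ham, btd and Sp1 (y axis, percent) by the number of pnt UMIs in the cell (x axis), for the mud, nanobody and control libraries, over cells with no repo and no nSyb UMI. The dashed line is the rule's threshold; at 10 or more pnt UMIs the share was 83.6% in mud, 76.7% in nanobody and 86.9% in control.

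The 4 lineage markers that the rule did not use were all higher in the pnt-positive cells than in the other called cells of the same library, in 3 of 3 libraries. Sp1 (X:9729648-9756369, Ensembl annotation of BDGP6.54, as for all positions here) was the most abundant of them by CPM. It stood at 2283 CPM (95% interval 2230 to 2337) in the pnt-positive cells of mud, 1407 (1349 to 1467) in nanobody and 1585 (1532 to 1640) in control. In the other cells it stood at 214 CPM in mud, 175 in nanobody and 167 in control. These are ratios of 3.39, 2.97 and 3.21 on the log2(CPM + 5) scale, the scale of all ratios below.

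The neighbouring Sp-family gene btd (X:9694186-9697558) was at 189 CPM in the pnt-positive cells of mud, 189 in nanobody and 217 in control, against 19.4, 20.3 and 17.3 CPM in the other cells. The zinc finger gene erm (2L:1950239-1970362) was at 326 CPM (306 to 347) in mud, 225 (202 to 250) in nanobody and 323 (300 to 349) in control, against 60.5, 54.1 and 50.3 CPM in the other cells. The PR-domain gene ham (2L:18762874-18792906) was at 235 CPM in mud, 179 in nanobody and 205 in control, against 61.9, 67.0 and 52.2 CPM in the other cells. For each of these genes the pnt-positive value of every library lay above the other-cell value of every library.

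Because deeper cells show more genes, the shares of cells with a UMI were also computed for cells thinned, in expectation, to 1000 UMIs. Sp1 was then found in 66.3% of pnt-positive cells of mud, 48.9% of nanobody and 57.9% of control, against 8.5%, 7.82% and 7.87% of the other cells. Without thinning the Sp1 shares were 74.1%, 60.8% and 74.0% of pnt-positive cells, and 13.6%, 12.2% and 12% of the other cells. As a measure of free RNA, Sp1 was found after thinning in 2.21%, 2.67% and 1.70% of repo-positive cells, whose median depth was 8748 UMIs in mud, 8727.5 in nanobody and 8953 in control. In the same cells erm was found in 5.27% of mud, 4.64% of nanobody and 6.48% of control, near its share of 5.98%, 5.59% and 5.16% in the other cells and below the 26.4%, 18.2% and 23.3% of pnt-positive cells. Barcodes with 20 to 200 UMIs, a second measure of free RNA, had ham at 207 CPM in mud, 141 in nanobody and 96.8 in control, closer to its level in the pnt-positive cells than for erm, at 79.9, 47.7 and 49.5 CPM, or btd, at 18.0, 20.4 and 17.7 CPM. At least 2 of the 4 markers were found after thinning in 41.4% (35.7 to 47.5) of pnt-positive cells of mud, 28.6% (20.5 to 37.3) of nanobody and 34.3% (26.6 to 42.5) of control, against 2.89%, 2.87% and 2.41% of the other cells.

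Without thinning, at least 2 of the 4 markers were found in 202 pnt-positive cells of mud (71.6%), 70 of nanobody (58.3%) and 103 of control (70.5%). All 4 were found in 136 cells of mud, 38 of nanobody and 66 of control. None of them was found in 53 cells of mud, 31 of nanobody and 30 of control, so the label of type II and intermediate progenitors was borne out by these markers for most of the cells and not for all. The reverse also held: among cells with no repo and no nSyb UMI, 1108 in mud, 1157 in nanobody and 994 in control carried at least 2 of the 4 markers with no pnt UMI at all. Of all called cells with at least 2 of the 4 markers, the pnt-positive cells made up 11.6% in mud, 4.76% in nanobody and 7.51% in control. Below, the 375 pnt-positive cells with at least 2 markers are called marker-supported.

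The neuroblast gene dpn was sparse. It stood at 37.6 CPM (31.0 to 45.1) in the pnt-positive cells of mud, 62.4 (50.7 to 76.1) in nanobody and 57.1 (47.4 to 68.3) in control, against 26.5, 24.5 and 18.0 CPM in the other cells. It fell short of 50 CPM in mud and so was not among the measured genes of the comparison below. A dpn UMI was found in 16.3% of pnt-positive cells of mud, 25.8% of nanobody and 24.0% of control without thinning, so most of these cells showed none. The proneural gene ase was at 184 CPM in the pnt-positive cells of mud, 128 in nanobody and 173 in control, against 183, 166 and 190 CPM in the other cells, and did not pass the 2-fold threshold in any library.

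**Figure D2:**
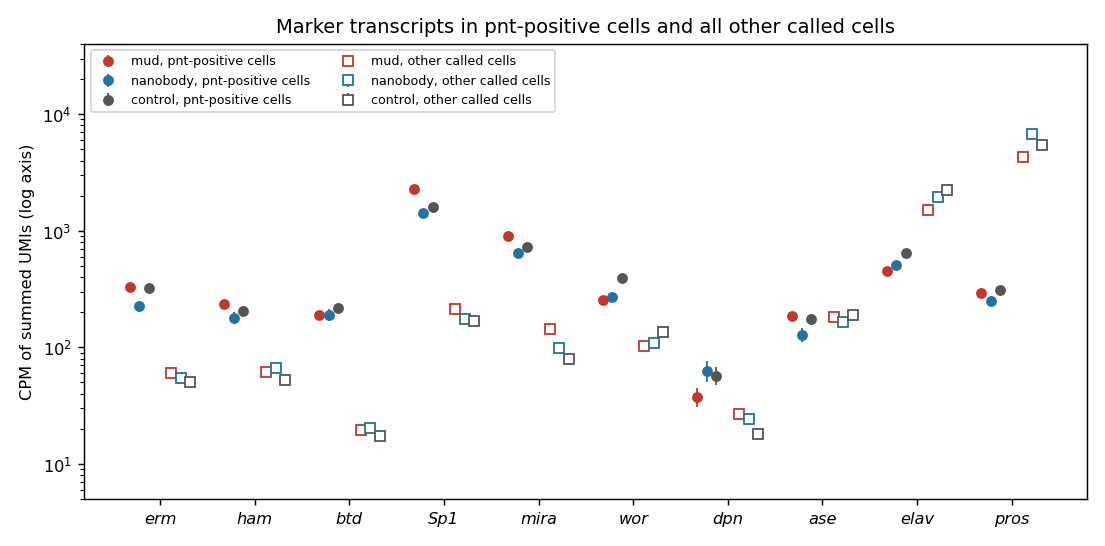
CPM of summed UMIs on a log axis for 10 genes in the pnt-positive cells (filled circles) and in all other called cells (open squares) of the mud, nanobody and control libraries; bars are exact 95% Poisson intervals. The erm, ham, btd, Sp1, mira and wor circles lie above the squares, the ase circles and squares lie at like heights, and the elav and pros circles lie below.

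Across all genes with at least 50 CPM in the pnt-positive cells, or in the other cells, of every library, 2952 were measured. Of these, 163 (5.52%) were more than 2-fold higher in the pnt-positive cells in all 3 libraries, and 408 (13.8%) were more than 2-fold lower. The median log2 ratio over the measured genes was -0.02 in mud, -0.05 in nanobody and -0.04 in control. Since the cells were chosen on transcripts of the same libraries, these counts describe the cells and test nothing.

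The gene with the highest ratio was l(1)sc, a proneural bHLH gene of the achaete-scute complex. It stood at 98.0 CPM in the pnt-positive cells of mud, 99.4 in nanobody and 110 in control, against 3.14, 2.73 and 2.78 CPM in the other cells. Dll, a homeodomain gene known from limb development, was at 450 CPM in mud, 271 in nanobody and 394 in control, against 34.4, 14.7 and 22.1 CPM in the other cells. For both genes, the other cells of every library lay far below the pnt-positive cells of every library. The rest of the 15 highest genes were twit, Sp1, btd, sty, mira, edl, ytr, CG15646, Cks30A, SpdS, Eaat1, erm and CG13305.

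2 of these 15 encode known modulators of the pathway in which pnt acts. The product of sty (Sprouty) inhibits receptor tyrosine kinase signalling, and the product of edl binds Ets factors and restrains them. The level of sty was 579 CPM in the pnt-positive cells of mud, 489 in nanobody and 723 in control, against 70.1, 67.3 and 64.4 CPM in the other cells. The level of edl was 352 CPM in mud, 205 in nanobody and 381 in control, against 47.2, 33.6 and 39.7 CPM in the other cells. The pathway as a whole did not share this direction. Of 24 listed EGF receptor pathway genes 11 were measured; sty was the 1 higher gene, and kek1, csw and cic were the 3 lower ones, while the ligand gene spi, the Star gene S, Ras85D, rl, drk, aop and Mkp3 did not pass 2-fold in all 3 libraries.

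Genes of neural stem cells were higher in part. Of 10 measured neuroblast genes 5 were higher (wor, mira, insc, grh and CycE) and 1 was lower (pros). On the list of intermediate progenitor genes 9 were measured, of which 3 were higher and 2 were lower. The level of mira, whose product carries fate determinants to the smaller daughter, was 907 CPM in mud, 643 in nanobody and 732 in control, against 143, 99.4 and 78.8 CPM in the other cells. The wor gene, which encodes a Snail-family factor, was at 256 CPM in mud, 269 in nanobody and 393 in control, against 103, 110 and 134 CPM in the other cells. The pros gene encodes the homeodomain factor that ends self-renewal in ganglion mother cells, and it was at 293 CPM in the pnt-positive cells of mud, 252 in nanobody and 313 in control, against 4303, 6786 and 5441 CPM in the other cells. The low pros level thus held in every library.

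Replication genes stood out among the cell cycle lists. Of 12 measured S-phase genes 10 were higher and none was lower, with a median log2 ratio of 1.17 in mud, 1.37 in nanobody and 1.49 in control. PCNA, the replication clamp, was at 417 CPM in mud, 432 in nanobody and 391 in control, against 162, 149 and 129 CPM in the other cells. CycE, the cyclin of entry into S phase, was at 462 CPM in mud, 368 in nanobody and 495 in control, against 133, 112 and 80.9 CPM in the other cells. Of 20 measured G2 and mitosis genes none passed 2-fold in all 3 libraries in either direction, with medians of 0.64, 0.76 and 0.81. Nucleolar genes were also higher: 6 of 11 measured genes of growth and ribosome assembly (Fib, Nop60B, Nop56, nop5, Nnp-1 and Ns1) passed, and mei-P26, whose product limits growth, was the 1 lower gene.

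Neuronal genes were lower, and part of this follows from the rule, which left out cells with nSyb. Of 6 measured mature neuron genes other than nSyb, all 6 were lower. Among the 10 lowest genes of the table were brp, a protein of the synaptic active zone, Rdl, a GABA receptor, nrv3, a subunit of the sodium pump, and eEF1alpha2, an elongation factor of neurons. The level of brp was 3.59 CPM in the pnt-positive cells of mud, 2.55 in nanobody and 1.42 in control, against 215, 222 and 177 CPM in the other cells. Of 6 measured genes of newborn neurons 5 were lower (elav, fne, Hey, nerfin-1 and hdc) and tap did not pass.

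Genes of developmental time and of position also differed from the other cells. Of 9 measured temporal genes Syp was the 1 higher gene and Imp, svp, br and mamo were the 4 lower ones. Syp and Imp encode RNA-binding proteins known for opposite gradients in ageing neuroblasts. Syp was at 2309 CPM in the pnt-positive cells of mud, 3311 in nanobody and 3378 in control, against 995, 1043 and 906 CPM in the other cells, and Imp was at 318 CPM in mud, 208 in nanobody and 145 in control, against 1162, 589 and 694 CPM. All 3 measured genes of the Hox list, Antp, Ubx and tsh, were lower, as were all 4 measured mushroom body genes, ey, toy, dac and Fas2. Antp was at 27.8 CPM in mud, 36.3 in nanobody and 50.5 in control, against 325, 301 and 424 CPM in the other cells. Of 5 measured genes on the optic lobe neuroepithelium list, 3 (Optix, l(1)sc and eya) were higher, hth was lower and shg did not pass. Optix was at 303 CPM in mud, 259 in nanobody and 338 in control, against 87.2, 85.0 and 105 CPM in the other cells. The zinc finger gene fru was at 225 CPM in mud, 182 in nanobody and 140 in control, against 78.5, 38.8 and 41.9 CPM in the other cells. In the marker-supported cells fru was only at 66.8 CPM in mud, 83.7 in nanobody and 71.7 in control. The higher level thus did not hold in the marker-supported cells of mud.

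The marker-supported cells were also set against cells that carry the neuroblast gene dpn (at least 2 UMIs, at most 1 pnt UMI, no repo and no nSyb). These numbered 382 in mud, 470 in nanobody and 223 in control. Of 2717 measured genes 35 (1.29%) were more than 2-fold higher in the marker-supported cells in all 3 libraries and 56 (2.06%) were lower. The levels of pnt, dpn, erm, btd and Sp1 follow from the choice of both sets of cells. The ham gene was also used in that choice but did not pass 2-fold in any library. It was at 292 CPM in mud, 220 in nanobody and 232 in control, against 236, 293 and 310 CPM in the dpn-positive cells.

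Several genes separated the marker-supported cells from the dpn-positive cells in the same direction as from all cells. Dll was at 528 CPM in the marker-supported cells of mud, 343 in nanobody and 411 in control, against 27.5, 18.7 and 19.0 CPM in the dpn-positive cells. Six4, a homeobox gene, was at 109 CPM in mud, 89.9 in nanobody and 127 in control, against 4.0, 7.40 and 8.03 CPM. The zinc finger gene cas was at 490 CPM in mud, 394 in nanobody and 469 in control, against 98.9, 111 and 121 CPM. Unlike Dll and Six4, cas had not passed 2-fold in all 3 libraries for pnt-positive over other called cells. The sty, edl, Optix, l(1)sc, twit and Eaat1 genes passed in the same direction.

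In the other direction, klu, a zinc finger gene of neuroblasts, was at 88.6 CPM in the marker-supported cells of mud, 118 in nanobody and 94.7 in control, against 578, 616 and 741 CPM in the dpn-positive cells. The stg gene, which encodes the phosphatase that starts mitosis, was at 175 CPM in mud, 122 in nanobody and 127 in control, against 763, 620 and 692 CPM. The Notch target E(spl)mgamma-HLH was at 63.5 CPM in mud, 86.4 in nanobody and 73.8 in control, against 298, 342 and 362 CPM. Of 8 measured genes on the medulla temporal list, 5 (scro, hbn, ey, slp1 and opa) were lower, and none was higher. The hth, slp2 and D genes did not pass, with log2 ratios of D at 0.53 in mud, 0.02 in nanobody and 0.47 in control. Of the genes lower here, scro, hbn, ey and opa are also on the list of intermediate progenitor genes. Of 11 measured genes on that list, erm was the 1 higher gene and 5 (dpn, scro, hbn, ey and opa) were lower. The scro gene was at 174 CPM in mud, 80.1 in nanobody and 33.2 in control, against 1010, 1804 and 1489 CPM. Of 13 measured S-phase genes, 5 (CycE, Mcm7, dup, RnrS and geminin) were lower than in the dpn-positive cells, none was higher and the other 8 did not pass. CycE was at 544 CPM in mud, 477 in nanobody and 543 in control, against 1188, 1259 and 1294 CPM. For CycE the marker-supported cells thus lay between the dpn-positive cells and the other called cells in every library. Of 11 measured neuroblast genes none was higher than in the dpn-positive cells, and dpn, klu and CycE were the 3 lower ones. The mira, wor, insc, grh and Syp genes, higher in the pnt-positive cells than in all other cells, did not pass here. The pros gene, lower than in all other cells, did not pass in all 3 libraries here. It was at 330 CPM in mud, 236 in nanobody and 320 in control, against 437, 484 and 465 CPM in the dpn-positive cells. A low pros level was thus shared with the dpn-positive cells. None of 10 measured growth and nucleolar genes passed either.

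The pnt-positive cells were not alike. Leiden clustering of the 548 cells gave 12 sub-clusters, numbered by size from 0. Since each sub-cluster was drawn from these transcripts, its leading genes describe it and are no finding, and its size is not compared between genotypes, because some leading genes differed between the libraries.

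Sub-cluster 3 (62 cells, of which 24 from mud, 14 from nanobody and 24 from control) carried the 6 type II neuroblast markers and is called type II neuroblast-like. It was led by tll, an orphan nuclear receptor gene of type II neuroblasts, and by vvl, stau, dpn and Syp. Its pnt level was 2455 CPM, its Syp level 9895 CPM, its mira level 1644 CPM and its ase level 36.2 CPM. In it tll was at 81.0 CPM in mud, 78.7 in nanobody and 62.8 in control, and dpn was at 195 CPM in mud, 149 in nanobody and 275 in control. In the other 11 sub-clusters tll was at most 15.7 CPM and dpn at most 88.7 CPM, both in sub-cluster 6. The ham level of the type II neuroblast-like cells was 81.0 CPM in mud, 8.75 in nanobody and 14.9 in control. The other intermediate progenitor factor gene, erm, was not low there. It was at 291 CPM in mud, 91.8 in nanobody and 206 in control, and was found in 48.4% of cells. In the other called cells erm was at 60.5, 54.1 and 50.3 CPM.

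Sub-cluster 6 (40 cells) had the highest pnt level, 4602 CPM, with 2148 CPM of sty, 1229 CPM of edl, 606 CPM of ham and 595 CPM of erm. Sub-cluster 9 (30 cells) was led by grn, a GATA factor gene, and held 3559 CPM of Sp1 and 527 CPM of ham. Sub-cluster 8 (31 cells) was led by TfAP-2 and also by l(1)sc. The dpn level was 88.7 CPM in sub-cluster 6, 7.59 CPM in sub-cluster 9 and 8.95 CPM in sub-cluster 8. These 3 groups showed erm, ham, btd and Sp1 together with the reporter transcript mCherry at 353 to 488 CPM, and at least 2 markers were found in 97.5% of cells of sub-cluster 6 and in every cell of sub-clusters 8 and 9.

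Sub-clusters 0 and 1 were the largest, with 100 and 75 cells. Sub-cluster 1 was led by D, a SoxB gene that is a temporal factor of intermediate progenitors, and by the replication genes dup, Mcm7, Mcm2 and dpa. D was at 875 CPM and CycE at 855 CPM there. Sub-cluster 0 was led by Fas3, a cell adhesion gene, at 456 CPM, and had D at 374 CPM. The ase level was 221 CPM in sub-cluster 0 and 262 CPM in sub-cluster 1, above that of the type II neuroblast-like cells. At least 2 markers were found in 96.0% of cells of sub-cluster 0 and in every cell of sub-cluster 1.

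Sub-cluster 2 (67 cells) is called newborn neuron-like from Hey, nerfin-1, elav, fne and hdc. It was at 2021 CPM of elav, 943 CPM of nerfin-1 and 475 CPM of pnt, and at least 2 markers were found in 41.8% of its cells. Its leading genes also included dap, a gene of cell cycle exit, at 772 CPM.

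The remaining 5 sub-clusters held 143 cells, 26.1% of the total, in which other cell types' genes led. Sub-cluster 4 (44 cells, 26 from mud, 10 from nanobody and 8 from control) is called glia-like: Obp44a stood at 23798 CPM and wrapper, a gene of cortex glia, at 675 CPM over the 3 libraries together, although repo was at 0 by the rule. By library Obp44a was at 22802 CPM in mud, 37068 in nanobody and 3855 in control, and wrapper was at 695 CPM in mud and 904 in nanobody with no UMI in the 8 control cells. Sub-cluster 7 (32 cells) was led by CG1648, Reck, gcm, cv-c and htl, with gcm, the glial fate switch, at 1321 CPM and moody, a gene of the blood-brain barrier, at 215 CPM; gcm was the 1 listed glial marker among its 10 leading genes, and it is left unnamed. Sub-cluster 11 (12 cells, 5 from mud, 7 from nanobody and none from control) is called hemocyte-like from Hml, He, srp and NimC1, with Hml at 2042 CPM. Sub-cluster 5 (40 cells) was led by dac, ds, ft and crb, genes of retinal and epithelial tissue, and sub-cluster 10 (15 cells) by side-V and bnb at a median of 2312 UMIs. Both are left unnamed. At least 2 markers were found in 55.0% of cells of sub-cluster 5, and in 2.27%, 3.13%, none and 8.33% of sub-clusters 4, 7, 10 and 11.

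**Figure D3:**
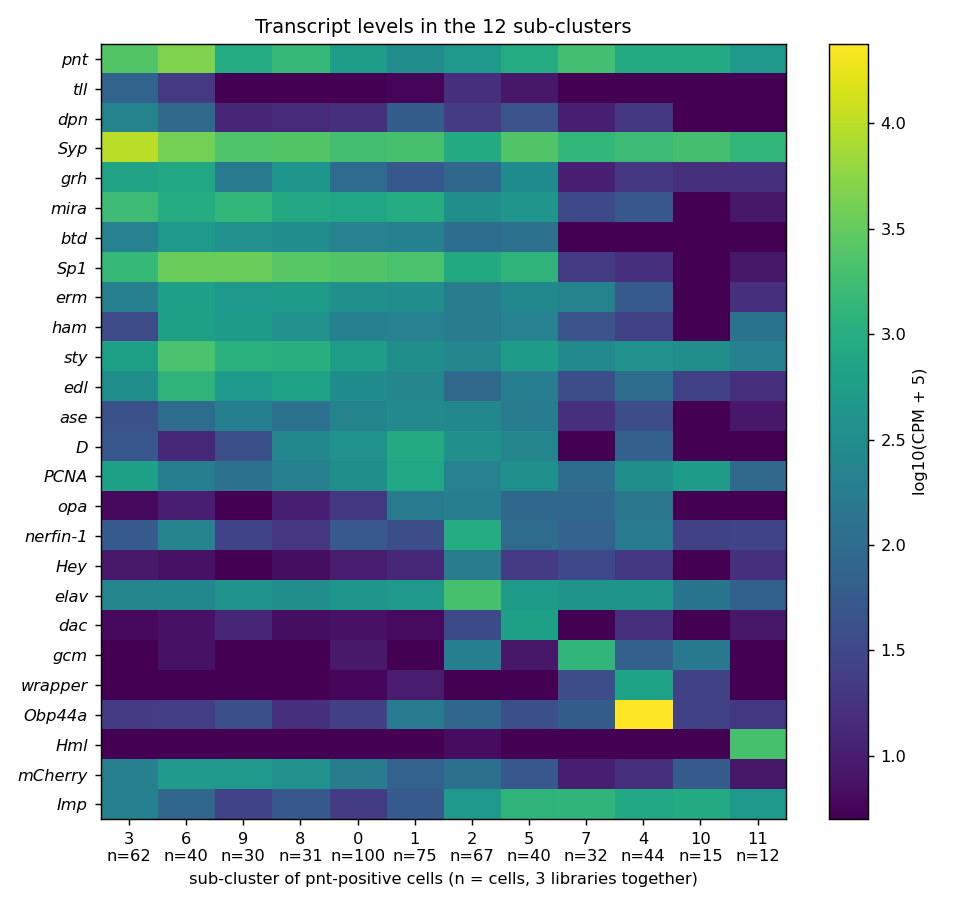
Level of 26 genes (rows) in the 12 sub-clusters of pnt-positive cells (columns, with cells of the 3 libraries together), as log10(CPM + 5) in colour. Sub-cluster 3 holds tll, dpn and the highest Syp, sub-cluster 6 the highest pnt, and sub-clusters 4, 7, 10 and 11 have little or no btd and Sp1.

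The pnt-positive share of called cells was 1.86% (1.65 to 2.08) in mud, 0.832% (0.691 to 0.995) in nanobody and 0.983% (0.831 to 1.16) in control. This was 1.89 times the control share in mud (counting interval 1.54 to 2.32) and 0.847 times in nanobody (0.660 to 1.09). Both comparisons share the same control library. Marker-supported cells made up 1.33% of called cells in mud, 0.486% in nanobody and 0.694% in control, 1.92 times (1.5 to 2.45) and 0.700 times (0.509 to 0.958) the control share. The pnt-positive cells of control were deeper than those of mud. After thinning to 1000 UMIs a pnt UMI was expected in 2.28% of all called cells of mud, 0.981% of nanobody and 1.33% of control. Over all called cells pnt was at 57.9 CPM in mud, 22.2 in nanobody and 38.3 in control. The barcodes with 20 to 200 UMIs had pnt at 60.1 CPM in mud, 24.1 in nanobody and 35.6 in control, the same order of libraries at like levels; the part of free RNA in the shares was not tested. How the sort, the dissection and the makeup of each library bear on these shares was not tested.

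Classes of pnt-positive cells by dpn and ase UMIs gave different ratios to control. Cells with a dpn UMI and no ase UMI, the pattern known for type II neuroblasts, numbered 19 in mud, 20 in nanobody and 19 in control, which is 0.125%, 0.139% and 0.128% of called cells. Their share was 0.977 times that of control in mud (0.490 to 1.95) and 1.08 times in nanobody (0.549 to 2.15). By counting error alone these intervals reach about 2-fold in either direction, and they do not cover differences between libraries. Cells with an ase UMI and no dpn UMI numbered 145 in mud, 41 in nanobody and 68 in control, which is 0.954% (0.806 to 1.12), 0.284% (0.204 to 0.386) and 0.458% (0.356 to 0.580) of called cells. Their share was 2.08 times that of control in mud (1.55 to 2.82) and 0.621 times in nanobody (0.411 to 0.929). Whether the classes differ in this ratio was not tested.

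Cells with both dpn and ase numbered 27 in mud, 11 in nanobody and 16 in control, and cells with neither numbered 91, 48 and 43. The cells with neither were the shallowest, with a median of 4866 UMIs in mud, 3397.5 in nanobody and 2338 in control, and a class set by the lack of a UMI takes in more cells at low depth. The dpn-positive, ase-negative cells had 3051 CPM of pnt in mud, 1732 in nanobody and 3336 in control, and the ase-positive, dpn-negative cells 894, 599 and 609 CPM. The D level had the opposite order, with 0, 16.1 and 60.3 CPM in the dpn-positive, ase-negative cells of mud, nanobody and control, and 361, 539 and 524 CPM in the ase-positive, dpn-negative cells.

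**Figure D4:**
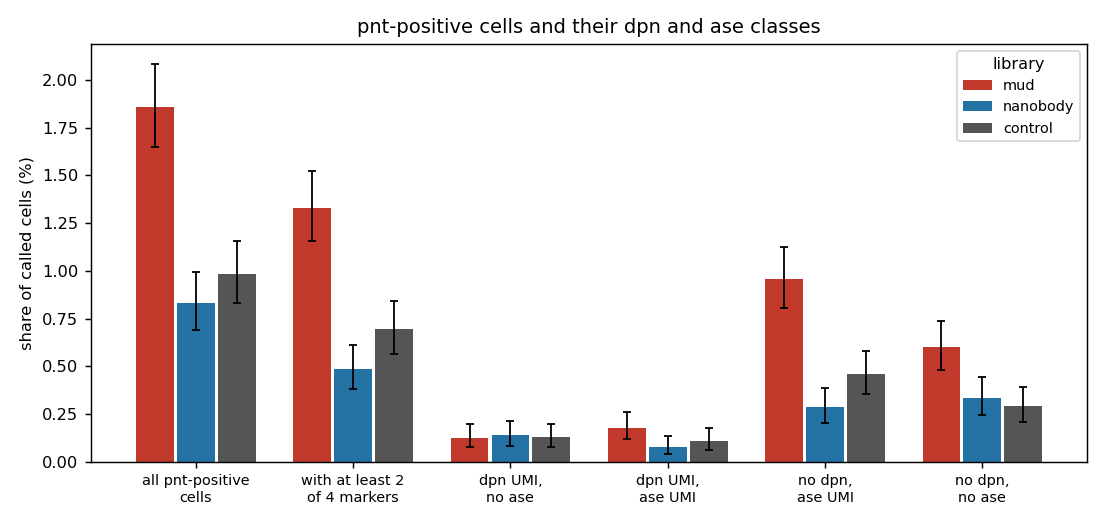
Share of called cells (y axis, percent, with exact 95% binomial intervals) that were pnt-positive, marker-supported, or in 1 of 4 classes by dpn and ase UMIs, for the mud, nanobody and control libraries. The dpn-positive, ase-negative bars stand at 0.125%, 0.139% and 0.128%, while the bars with ase and no dpn stand at 0.954%, 0.284% and 0.458%.

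Within all pnt-positive cells, 2906 genes were measured between mud and control, with at least 50 CPM in one library and a UMI in at least 5% of its pnt-positive cells. Of these 71 (2.44%) were more than 2-fold higher in mud and 18 (0.619%) were lower. Between nanobody and control 2943 were measured, and 76 (2.58%) were higher in nanobody and 8 (0.272%) lower. In mud the first 2, both leading genes of the glia-like sub-cluster 4, were Obp99a, at 371 CPM against 0.94 CPM in control, and Obp44a, at 1542 CPM against 50.1 CPM. In nanobody Nplp2, CG8157, regucalcin and Idgf6, all leading genes of the hemocyte-like sub-cluster 11, came first, with Nplp2 at 4094 CPM and no UMI in control. The nanobody values of these 4 genes came from few cells: Nplp2 was found in 8 of 120 cells, and with hemocyte marker cells left out its log2 ratio was 0.19, against 9.68 with them. The 8 hemocyte markers summed to 308 CPM in the pnt-positive cells of mud, 352 in nanobody and 2.36 in control.

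The marker-supported cells were therefore compared by themselves, a choice made after these values were seen. Between mud and control 2848 genes were measured, of which 51 (1.79%) were higher in mud and 20 (0.702%) lower. Between nanobody and control 2839 were measured, of which 8 (0.282%) were higher and 8 (0.282%) lower. None of erm, ham, btd, Sp1, pnt and dpn passed 2-fold in either comparison. All of these but dpn were used to choose the cells in every library, so their like levels follow in part from that choice. None of 12 S-phase, 21 G2 and mitosis, 11 growth and 8 EGF receptor pathway genes measured passed in either comparison.

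The gene with the lowest ratio in mud was Arc1, which encodes a capsid-forming protein known from synapses. It stood at 6.68 CPM (3.82 to 10.9) in the marker-supported cells of mud and 73.9 in nanobody, against 244 CPM (222 to 267) in control. It was found in 4.95% of marker-supported cells of mud and 45.6% of control. The difference recurred in sub-clusters 0, 1, 3, 6, 8 and 9: in the type II neuroblast-like cells Arc1 was at 4.76 CPM in mud and 262 in nanobody, against 416 in control, and in sub-cluster 0 it was at 4.49 CPM in mud and 30.5 in nanobody, against 344 in control. In the other called cells Arc1 was at 31.2 CPM in mud and 50.9 in nanobody, against 26 in control.

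CG32640 and CG32641 are both 519 bases long and lie close together on X (X:13178005-13178523 and X:13184478-13184996). Their sequences were not compared. Whether reads of one were counted for the other was therefore not tested, and their separate values are uncertain. CG32640 was at 8.36 CPM in the marker-supported cells of mud and 70.3 in nanobody, against 109 in control, and CG32641 was at 37.2 CPM in mud against 117 in control. CG32640 was found in 9.41% of these cells in mud and 79.6% in control. It was lower in the other called cells of mud too, at 5.0 CPM against 33.0 CPM in control. CG14545 was at 23.4 CPM in mud and 154 in nanobody, against 118 in control, and CG13029 was at 14.2 CPM in mud and 35.6 in nanobody, against 76.5 in control. The small heat shock gene Hsp23 was at 126 CPM in mud and Hsp67Ba at 12.1 CPM, against 422 and 58.8 CPM in control. Hsp23 was not at one level in control: in the type II neuroblast-like cells it was at 229 CPM in mud and 744 in nanobody, against 1572 in control, and in sub-cluster 1 at 132 CPM in mud and 267 in nanobody, against 121 in control. CG14989 also passed, but 73.9% of its control UMIs came from 1 cell, and without the largest cell of each library its log2 ratio was -0.32.

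Of the 8 named genes higher in mud, grn had the most UMIs. It was at 613 CPM (582 to 645) in the marker-supported cells of mud and 163 in nanobody, against 158 CPM (140 to 177) in control, and was found in 50% of these cells in mud and 25.2% in control. Within sub-cluster 0 it was at 794 CPM in mud and 187 in nanobody, against 186 in control, from 52, 17 and 31 cells. Within sub-cluster 9 it was at 1763 CPM in mud and 785 in nanobody, against 761 in control. The sub-cluster 9 values rest on 22 cells of mud but only 3 of nanobody and 5 of control. How the makeup by sub-cluster bears on the grn level was not tested. In the other called cells grn was at 276 CPM in mud and 221 CPM in control. Dys, the dystrophin gene, was at 95.3 CPM in mud against 23.0 CPM in control and was found in 50.5% and 20.4% of cells. In the low-UMI barcodes used above as a measure of free RNA, Dys was at 555 CPM in mud and 170 in control. These levels lay above those of the marker-supported cells in both libraries. The grn level in the same barcodes was 335 CPM in mud and 182 in control. The part of free RNA in the Dys and grn differences was not tested. The sordd1 gene was at 52.2 CPM in mud against 5.88 CPM in control, but in the other called cells it was also higher in mud, at 65.0 CPM against 12.5 CPM.

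The 8 hemocyte markers summed to 238 CPM in the marker-supported cells of mud and 1.78 in nanobody, against 2.14 in control, and 1 mud cell held at least 3 hemocyte marker UMIs. Of the SPARC UMIs in the marker-supported cells of mud, 71.3% came from 1 cell, and without hemocyte marker cells its log2 ratio was 1.21, against 2.74 with them. For DIP-lambda 49.3% of the mud UMIs came from 1 cell. The scro gene was at 174 CPM in mud against 33.2 CPM in control, but in sub-clusters 0, 1, 3, 6, 8 and 9 it was at most 59.3 CPM in any library. The UMIs of rut were spread over 65 marker-supported cells of mud and those of RapGAP1 over 40. RapGAP1 and rut were at 97.8 and 50.1 CPM in mud, against 24.1 and 9.63 CPM in control. In the low-UMI barcodes RapGAP1 was at 913 CPM in mud and 515 in control, and rut at 231 and 110 CPM. DIP-lambda was at 427 CPM in mud and 97.2 in control there, and scro at 1351 and 775 CPM. SPARC had the opposite order in these barcodes, at 18.7 CPM in mud and 28.0 in control. The part of free RNA in the differences of these genes was not tested.

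In nanobody Obp44a led the genes above control in the marker-supported cells, with a log2 ratio of 4.09, but 90.6% of its nanobody UMIs came from 1 cell. The zinc finger gene mamo was at 248 CPM in nanobody against 56.7 CPM in control and was found in 23 cells (32.9%) and 12 cells (11.7%). In sub-cluster 1 it was at 413 CPM in nanobody from 3 cells with a UMI. In the low-UMI barcodes mamo was at 1871 CPM in nanobody and 1246 in control, and the part of free RNA in its difference was not tested. Of the lower genes, Arc1 had a log2 ratio of -1.66 and CG13029 of -1.0; both were also lower in mud. Tsp26A was found in 11 marker-supported cells of nanobody (15.7%) and 51 of control (49.5%). The jim gene had 42.3% of its control UMIs in 1 cell.

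The reporter transcript mCherry was at 125 CPM in the marker-supported cells of mud and 175 in nanobody, against 296 in control, past 2-fold in mud alone. The endogenous wor gene, after which the driver is named, did not pass 2-fold; it was at 313 CPM in mud and 350 in nanobody, against 422 in control. In the other called cells mCherry was at 43.6 CPM in mud, 68.4 in nanobody and 132 in control, so that the order of the libraries was the same there. The part of this reporter difference in the results above was not tested. Imp was at 191 CPM in the marker-supported cells of mud and 117 in nanobody, against 57.2 in control, a log2 ratio of 1.65 for mud and 0.97 for nanobody. Of the 8 temporal genes measured, Imp, EcR and mamo were the 3 past 2-fold in mud, all higher. EcR, the ecdysone receptor gene, was at 178 CPM in mud against 76.0 CPM in control. It was also higher in mud in the dpn-positive cells, at 175 CPM, against 82.1 in nanobody and 75.7 in control. The basal determinant gene stau was at 84.8 CPM in mud against 177 CPM in control; it is a leading gene of sub-cluster 3. In sub-cluster 3 Imp was at 500 CPM in mud and 101 in nanobody, against 77.7 in control.

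**Figure D5:**
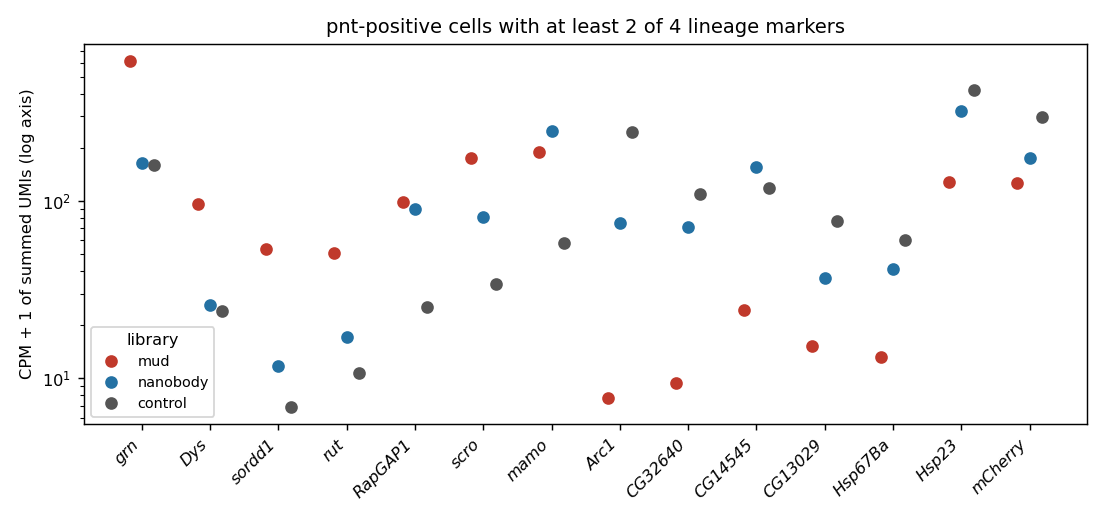
CPM + 1 of summed UMIs on a log axis in the marker-supported cells of the mud, nanobody and control libraries, for 14 transcripts past 2-fold in at least 1 comparison with control. Arc1, CG32640, CG14545, CG13029, Hsp67Ba and Hsp23 are lowest in mud, with Arc1 at 6.68 CPM against 244 CPM in control, and grn is highest in mud, at 613 CPM.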

How the data were processed

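Single-cell transcripts were measured in 3 libraries, 1 per genotype. The deposited values are whole-number UMI counts per gene and barcode, made by the authors with Cell Ranger 9.0.1, per the file headers; Cell Ranger and Seurat are named in the submitters' processing notes. The genome build and annotation behind the counts are not given in the sources used here. Unfiltered barcodes were cut at the limits given in the report. The libraries held 125857942 UMIs in mud, 127824556 in nanobody and 120307337 in control.

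UMIs were summed over cells per library, scaled to CPM of all UMIs and compared as log2(CPM + 5), with 2-fold as the threshold; no count test was made, between genotypes because each had 1 library, and against other cells because the cells were chosen on the same transcripts. Pnt-positive cells were set against other cells for genes at 50 CPM or more in either set of every library, and genotypes for genes at 50 CPM or more in 1 library and a UMI in at least 5% of its cells. Shares after thinning are exact expectations at 1000 UMIs. A count of 0 allows up to 3 counts. The 548 cells were clustered with scanpy 1.11.5 and leidenalg 0.10.2 (1500 variable genes, 20 components, 15 neighbours, resolution 1, seed 7). Named genes were the 15 highest and 10 lowest against other cells, the 8 highest and 8 lowest per genotype comparison, genes of 31 lists (270 of 273 symbols matched) and the 10 leading genes of each sub-cluster; genes set against the dpn-positive cells were picked after their values were seen. FlyBase IDs of 13976 of 13988 features matched Ensembl release 115 (BDGP6.54), used for positions. Ratio and thinning steps were tested on simulated data. Python 3.11.15, numpy 2.4.6, scipy 1.17.1, pandas 2.3.3, R 4.3.3 and edgeR 4.0.16 (TMM scaling alone) were used.

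No doublets were removed, as the rule has no such step; Scrublet, set to 0.4% per 1000 cells, marked 15 pnt-positive cells in mud, 8 in nanobody and 11 in control. The cells and the gene lists were chosen with earlier results of these data known. The marker-supported cells, the single-cell shares, the dpn-positive comparison and the dpn and ase classes were added after seeing the data. Other thresholds, scalings and cell sets were tried as alternatives.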

Additional observations from a re-analysis of the deposited data

Results flagged for a closer look

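Obp44a, an odorant-binding protein gene that is abundant in glia, was on opposite sides of the other called cells in different libraries. Its log2 ratio of pnt-positive over other cells was 1.71 in mud and 1.09 in nanobody, against -1.32 in control, and the difference between libraries was not tested. In CPM it stood at 1542 in the pnt-positive cells of mud, 1303 in nanobody and 50.1 in control, against 467, 610 and 133 in the other cells. Single cells held 17.5% of the Obp44a UMIs of the pnt-positive cells in mud and 45.4% in nanobody, against 49.1% in control. Within the glia-like sub-cluster 4 Obp44a was at 22802 CPM in mud and 37068 in nanobody, against 3855 in control.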

How the results depend on the processing

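No paired analysis of genotypes was possible because each genotype had 1 library, and no replicate could be left out. Pnt-positive and other cells were paired within each library and compared there without a test, since the cells were chosen on the same transcripts. The share of pnt-positive cells was 2.91% in mud, 1.33% in nanobody and 1.57% in control with 1 pnt UMI as the minimum, 1.51%, 0.638% and 0.781% with 3, and 2.70%, 1.27% and 1.65% with no condition on repo. With no condition on nSyb the mud share was 2.27%. The share with at least 2 of erm, ham, btd and Sp1 was 71.6%, 58.3% and 70.5% unthinned and 60.4%, 41.1% and 54.1% at 2000 UMIs.

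Against the other cells, 102 genes were higher with 20 CPM added. With a minimum of 100 CPM 94 were higher and 259 lower, and with 10 summed UMIs as the only minimum 272 were higher and 852 lower. Between mud and control, 41 genes were higher and 11 lower with 20 CPM added, 34 and 11 with a minimum of 100 CPM, and 343 and 53 with 10 summed UMIs. Between nanobody and control the counts were 50 and 5 with 20 CPM added, 27 and 5 with a minimum of 100 CPM, 412 and 30 with 10 summed UMIs, and 25 and 3 with hemocyte marker cells left out. With CPM averaged over cells 33 genes were lower in mud, and 131 were higher and 33 lower in nanobody. In marker-supported cells 8 were higher in nanobody, and without hemocyte marker cells 46 were higher in mud and 8 in nanobody. Ance turned to -0.73 in nanobody without hemocyte marker cells, and Ama to -0.58 in mud in the marker-supported cells, with or without hemocyte marker cells; the cause was not tested.

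Of the shares and counts of genes recomputed under these alternatives, 64 values stayed within the limits set for a like value and 41 did not. A share or count has no direction that could change. Among the single-gene ratios 3 values changed direction, those of Ance and Ama given above. TMM scaling put the median gene at -0.19 in nanobody for pnt-positive over other cells and at -0.12 for nanobody over control. Leiden clustering gave 8 sub-clusters at resolution 0.5 and 12 with seed 11, with adjusted Rand indices of 0.747 and 0.80 to the division reported. Depth limited the sparse genes: dpn and tll gave few UMIs per cell, and the classes by dpn and ase UMIs held as few as 11 cells in a library.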
